A study of Homo sapiens with 12 samples.

Results

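The miR-106b-25 cluster consists of the microRNA (miRNA) genes MIR106B, MIR93 and MIR25, which lie one after another in an intron of MCM7, the gene of a subunit of the MCM helicase that opens DNA for replication. Each hairpin yields a mature miRNA from its 5′ arm (5p) and another from its 3′ arm (3p), and these 6 mature miRNAs were found in the count tables by their names there, hsa-mir-106b-5p, hsa-mir-106b-3p, hsa-mir-93-5p, hsa-mir-93-3p, hsa-mir-25-5p and hsa-mir-25-3p; all 6 had reads in every library, out of 1733 mature miRNAs listed in any library. The libraries came from the human pancreatic ductal adenocarcinoma (PDAC) lines AsPC-1 and PANC-1, with 3 control and 3 MYEOV-knockdown libraries of each line, 12 in all. MYEOV, a gene first described in myeloma and overexpressed in several carcinomas, was knocked down by transfection of Stealth siRNA with Lipofectamine. The sample descriptions call the controls untreated, while the treatment protocol names a negative control siRNA (siNC), so whether the controls were transfected cannot be told from the labels. Small RNA was prepared 48 h after transfection per the labels, and the study's methods give an earlier time. The protocol names 2 MYEOV siRNAs (siMYEOV-1 and siMYEOV-2) for 3 knockdown libraries per line, and the labels do not say which siRNA a library received. AsPC-1 was grown in RPMI 1640 and PANC-1 in DMEM, both with fetal bovine serum, so line and medium cannot be told apart. MYEOV mRNA is not measured by small RNA sequencing and the knockdown was not checked here.

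A primary transcript is cut by Drosha into hairpins and each hairpin by Dicer into a short duplex, one strand of which (the guide) is usually kept by Argonaute while the other (the passenger) is mostly degraded. The guide finds its target mRNAs through its seed, bases 2 to 8. The cluster is a paralog of the miR-17-92 and miR-106a-363 clusters, and its guides miR-106b-5p and miR-93-5p are known to target the cell cycle inhibitor CDKN1A, while miR-25-3p targets the pro-apoptotic BCL2L11. Guide is used here as the customary name of these arms, not as a reading of their counts in these lines. MCM7 and its cluster are known targets of the transcription factors E2F1 and MYC, which drive proliferation genes.

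On the minus strand of chromosome 7 (GRCh37, the build named hg19 in the processing notes), MIR106B lies at chr7:99691616-99691697, MIR93 at chr7:99691391-99691470 and MIR25 at chr7:99691183-99691266. All 3 lie in intron 13 (chr7:99691025-99691795) of the MCM7 reference transcript, which has 15 exons, within 515 bp of each other. Of 13 annotated MCM7 transcripts, 1 has an exon that overlaps the cluster. MIR106B starts 7323 bp from the start of the reference transcript.

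**Figure D1:**
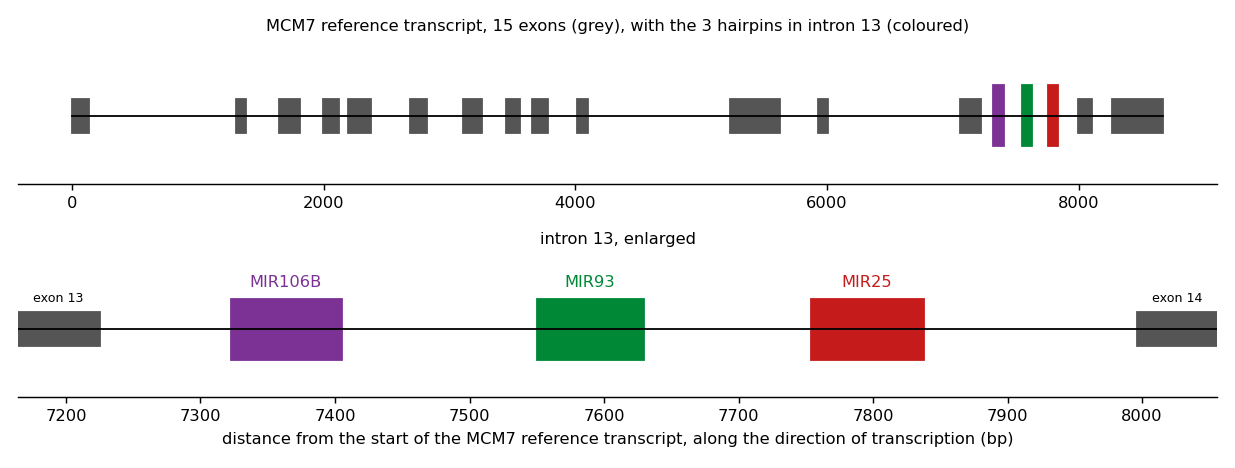
Map of the MCM7 reference transcript to scale, with the distance from its start in bp along the direction of transcription on the x axis; grey boxes are exons and coloured boxes the 3 hairpins, with intron 13 enlarged in the lower panel. The hairpins follow one another in the order MIR106B, MIR93, MIR25 between exons 13 and 14.

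The mature sequences show which arms share a seed. They are given 5′ to 3′ from RefSeq (table of build GRCh38.p14, in which 6 of 6 members were matched), with the seed in capitals:
miR-106b-5p: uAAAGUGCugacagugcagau
miR-93-5p: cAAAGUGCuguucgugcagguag
miR-25-3p: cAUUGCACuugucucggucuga
miR-106b-3p: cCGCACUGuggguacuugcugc
miR-93-3p: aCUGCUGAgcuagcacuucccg
miR-25-5p: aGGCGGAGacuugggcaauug
miR-106b-5p shared its seed with 7 other mature miRNAs of the 2370 in the table, among them miR-93-5p and, from the miR-17-92 cluster, miR-17-5p and miR-20a-5p. The seed of miR-25-3p occurred in 5 others, miR-32-5p, miR-92a-3p, miR-92b-3p, miR-363-3p and miR-367-3p. The seeds of miR-106b-3p, miR-93-3p and miR-25-5p occurred in no other miRNA of the table.

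The hairpins of MIR106B and MIR25, whose arm ratios are compared later, are shown for the position of their arms. The capitals mark the 5p arm and, after the loop, the 3p arm:
MIR106B: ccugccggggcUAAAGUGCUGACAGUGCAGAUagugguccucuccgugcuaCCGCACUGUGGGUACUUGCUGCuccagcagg
MIR25: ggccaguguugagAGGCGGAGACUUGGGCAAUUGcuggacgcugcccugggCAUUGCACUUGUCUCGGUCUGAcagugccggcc
The deposited count of an arm covers its most abundant sequence and those with the same 5′ end, so a form with a shifted 5′ end is not in it, and the counted form can start at another base than the RefSeq sequence.

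Since MYC and E2F1 act at the MCM7 promoter, the RefSeq promoter windows (250 bases before to 50 after a start) were searched for the MYC motif CACGTG, which reads the same on both strands. Of 3 MCM7 windows 1 held it, with its first base 25 bases before the start of the reference transcript, and 7.256% of 35116 windows of all genes held it. The 30 bases around the match (GRCh37, chr7:99699028-99699057, minus strand, motif in capitals) are shown:
MCM7: agtggcgccggtCACGTGgggggcgacgtt
A match of letters is not evidence of binding, which was not measured in these libraries.

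The libraries held between 3805084 (a PANC-1 control) and 7311783 (an AsPC-1 control) miRNA counts, and 1014 to 1144 miRNAs were listed in each. One library, AsPC-1 control replicate 1, stood apart from the other AsPC-1 controls: the chi-square statistic of their counts per degree of freedom was 277 against replicate 2 and 225 against replicate 3, and 9.40 to 69.7 in all other pairs of replicates. No pair of replicates held identical values. The labels do not say whether replicates were separate cultures, so p-values measure only the spread between these libraries. The epithelial miRNAs (the miR-200 family and miR-205-5p) summed to 48678 to 52667 CPM (read counts scaled to library size) in AsPC-1 and to 212 to 276 CPM in PANC-1, with 5 of 6 detected in each line and miR-205-5p at 0. The acinar markers miR-216a-5p, miR-216b-5p and miR-217 summed to at most 0.509 CPM in any library, and the summed blood markers did not pass 16.6 CPM. The islet markers miR-375 and miR-7-5p summed to 42430 to 55891 CPM in AsPC-1 and 15127 to 19196 CPM in PANC-1, and the 4 stroma markers to 4.24 to 5.63 and 60.2 to 71.4 CPM. The liver and muscle markers summed to at most 10.8 and 4.46 CPM.

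The cluster was abundant in both lines and took 1.35% to 1.78% of the counts of the AsPC-1 libraries and 1.12% to 1.72% of those of PANC-1. Levels are given as CPM scaled with TMM (trimmed mean of M-values) factors. For levels and for the comparisons of knockdown with control the scaling was done within each line, so the CPM of AsPC-1 and of PANC-1 are on separate scales and are not compared with each other. Counts of different sequences also depend on how well adapters ligate to them. miR-25-3p led the cluster in both lines, at 42.0% to 55.1% of its reads in the AsPC-1 libraries and 48.2% to 53.3% in those of PANC-1. In the control libraries it ranked 29th among the miRNAs tested in AsPC-1 (7587 ± 502 CPM, SD, n = 3) and 23rd in PANC-1 (7736 ± 198 CPM). miR-93-5p followed, with 28.04% to 37.2% of the cluster's reads in AsPC-1 libraries and 25.3% to 30.5% in PANC-1 libraries. The miR-106b arms came next, 5p before 3p in AsPC-1 (1846 ± 209 and 843 ± 381 CPM in the controls) and side by side in PANC-1 (1471 ± 189 and 1524 ± 16.3 CPM). The rare arms were miR-25-5p, with 137 ± 12.3 CPM in AsPC-1 and 153 ± 8.22 CPM in PANC-1, and miR-93-3p, with 32.2 ± 2.17 and 30.1 ± 3.61 CPM. In both lines' controls the ranges of neighbours in this order did not overlap, except for the miR-106b arms in PANC-1. For scale, miR-21-5p, the most abundant miRNA, stood at 179850 ± 5065 CPM in AsPC-1 and 246905 ± 10023 CPM in PANC-1 controls.

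**Figure D2:**
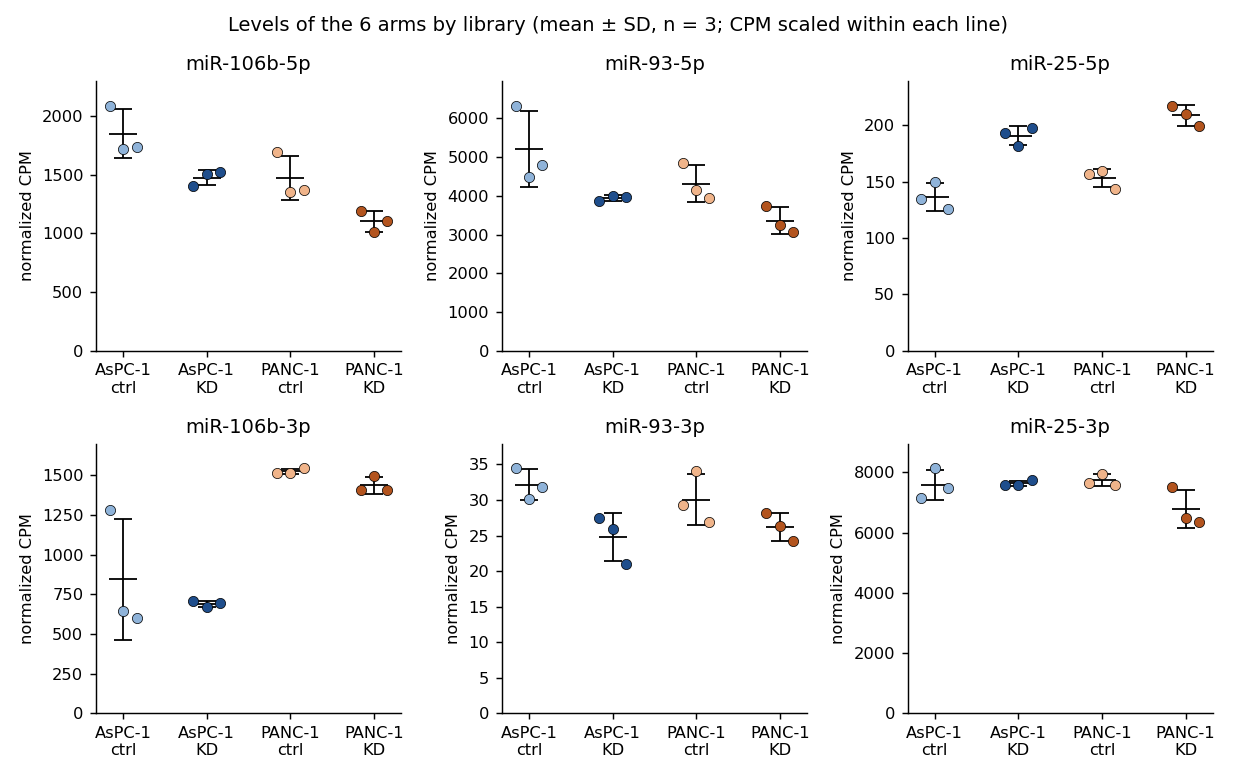
Normalized CPM (y axis, from 0, a different range in each panel) of the 6 arms in the control (ctrl) and knockdown (KD) libraries of each line (x axis); points are libraries and black bars the mean ± SD (n = 3). miR-25-5p sits higher in the knockdown libraries of both lines, miR-106b-5p and miR-93-5p sit lower, and the AsPC-1 control point of miR-106b-3p at 1282 CPM is replicate 1.

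To ask how the arms differed after knockdown, it was compared with control in each line with the quasi-likelihood test of edgeR. The p-values were adjusted (Benjamini-Hochberg) across every miRNA tested, with a threshold of 0.05. If the controls were not transfected, loss of MYEOV and transfection itself cannot be told apart. The same 3 of 6 arms changed in both lines: the guides miR-106b-5p and miR-93-5p fell, and miR-25-5p, the rare arm of the miR-25 hairpin, rose. Of all miRNAs, 11.4% of 498 tested passed the threshold in AsPC-1 (4.42% lower and 7.03% higher) and 22% of 551 in PANC-1 (9.26% lower and 12.7% higher). In AsPC-1, 22 miRNAs fell and 35 rose, 44 and 58 of 505 tested without control replicate 1, and 45 and 25 of 650 with all 12 libraries in 1 fit. The balance in PANC-1 depended on scaling: 51 miRNAs fell and 70 rose with TMM, 117 and 26 with total counts, and 29 and 65 with upper-quartile factors. The 6 arms had a median log2 fold change of −0.31 (AsPC-1) and −0.20 (PANC-1), beside −0.0047 and 0.028 over all miRNAs. Without AsPC-1 control replicate 1 the AsPC-1 median of the arms was −0.12, beside 0.028 over all miRNAs, and with total count scaling the PANC-1 median was −0.34, beside −0.12 over all. Each library pools many cells, so fewer cells with a miRNA and less of it per cell cannot be told apart.

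miR-25-5p was at 135, 150 and 125 CPM in the AsPC-1 controls and at 193, 182 and 198 CPM after knockdown. In PANC-1 it was at 156, 159 and 143.8 CPM in the controls and at 218, 210 and 199.2 CPM after knockdown. The groups did not overlap in either line. The log2 fold change was 0.48 (SE 0.09, edgeR adjusted p = 0.00327) in AsPC-1 and 0.45 (SE 0.09, edgeR adjusted p = 0.00068) in PANC-1, a rise of 39.8% and 36.2%. It passed the threshold without any 1 library of either line, and without AsPC-1 control replicate 1 the log2 fold change was 0.48.

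miR-93-5p was at 6331, 4489 and 4792 CPM in the AsPC-1 controls and at 3861, 3999 and 3978 CPM after knockdown. In PANC-1 the controls held 4848, 4150 and 3954 CPM and the knockdown libraries 3746, 3249 and 3073 CPM. Every knockdown library lay below every control of its line, with the highest AsPC-1 value in the replicate that stood apart. The log2 fold change was −0.40 (SE 0.11, edgeR adjusted p = 0.0251) in AsPC-1 and −0.36 (SE 0.09, edgeR adjusted p = 0.00471) in PANC-1. Without AsPC-1 control replicate 1 it was −0.23 (edgeR adjusted p = 0.00229). Leaving out AsPC-1 knockdown replicate 1, 2 or 3 gave −0.39, −0.40 and −0.40 with edgeR adjusted p = 0.102, 0.0621 and 0.0803, and leaving out PANC-1 knockdown replicate 3 gave −0.30 with edgeR adjusted p = 0.0747.

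miR-106b-5p, with the same seed, was at 2088, 1715 and 1737 CPM in the AsPC-1 controls and at 1401, 1501 and 1522 CPM after knockdown. In PANC-1 it was at 1688, 1355 and 1369 CPM in the controls and at 1192, 1011 and 1105 CPM after knockdown. Again all knockdown libraries were below all controls of their line. The log2 fold change was −0.32 (SE 0.09, edgeR adjusted p = 0.0262) in AsPC-1 and −0.42 (SE 0.09, edgeR adjusted p = 0.00135) in PANC-1. In AsPC-1 it was −0.22 without control replicate 1 (edgeR adjusted p = 0.0068), and −0.29, −0.33 and −0.34 without knockdown replicate 1, 2 or 3 (edgeR adjusted p = 0.139, 0.0845 and 0.0832). In PANC-1 it passed the threshold without any 1 library.

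miR-25-3p, the most abundant arm, was at 7150, 8136 and 7476 CPM in the AsPC-1 controls and at 7583, 7586 and 7739 CPM after knockdown, and all 3 knockdown values lay within the range of the controls. Its log2 fold change was 0.01 (SE 0.08, edgeR adjusted p = 0.934). In PANC-1 the controls held 7657, 7960 and 7589 CPM and the knockdown libraries 7519, 6474 and 6362 CPM, which did not overlap. The log2 fold change there was −0.19 (SE 0.09, edgeR adjusted p = 0.115) and missed the threshold. It was −0.27 (edgeR adjusted p = 0.0349) without PANC-1 knockdown replicate 1, and −0.33 (edgeR adjusted p = 0.0116) when libraries were scaled by total count.

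miR-106b-3p was at 1282, 645 and 602 CPM in the AsPC-1 controls and at 706, 670 and 697 CPM after knockdown. Only the control replicate that stood apart lay above the knockdown libraries. The log2 fold change was −0.29 (SE 0.20, edgeR adjusted p = 0.397) with it and 0.16 (edgeR adjusted p = 0.0749) without it, so the sign of its difference in AsPC-1 rested on that library. In PANC-1 it was at 1514 to 1543 CPM in the controls and 1404 to 1495 CPM after knockdown, a log2 fold change of −0.09 (SE 0.08, edgeR adjusted p = 0.452), and −0.23 (edgeR adjusted p = 0.0411) with total count scaling. miR-93-3p, the rarest arm, was at 30.1 to 34.5 CPM in the AsPC-1 controls and 21.0 to 27.4 CPM after knockdown, a log2 fold change of −0.37 (SE 0.14, edgeR adjusted p = 0.095; 0.0311 with all 12 libraries in 1 fit). In PANC-1 its groups overlapped, with a log2 fold change of −0.21 (SE 0.15, edgeR adjusted p = 0.314), −0.11 without PANC-1 control replicate 2 and −0.35 (edgeR adjusted p = 0.093) with total count scaling.

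The groups did not overlap for 4 of 6 arms in AsPC-1 and 5 of 6 in PANC-1, beside 30.5% and 36.7% of all miRNAs tested. A test of the difference between the lines in the response called 0 of 6 arms, with edgeR adjusted p from 0.631 to 1.00 and 0 at an unadjusted p under 0.05, and it called 0.308% of 650 miRNAs. DESeq2's Wald test also called 0 of 6. With 3 libraries a group, this does not show that the arms responded alike.

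**Figure D3:**
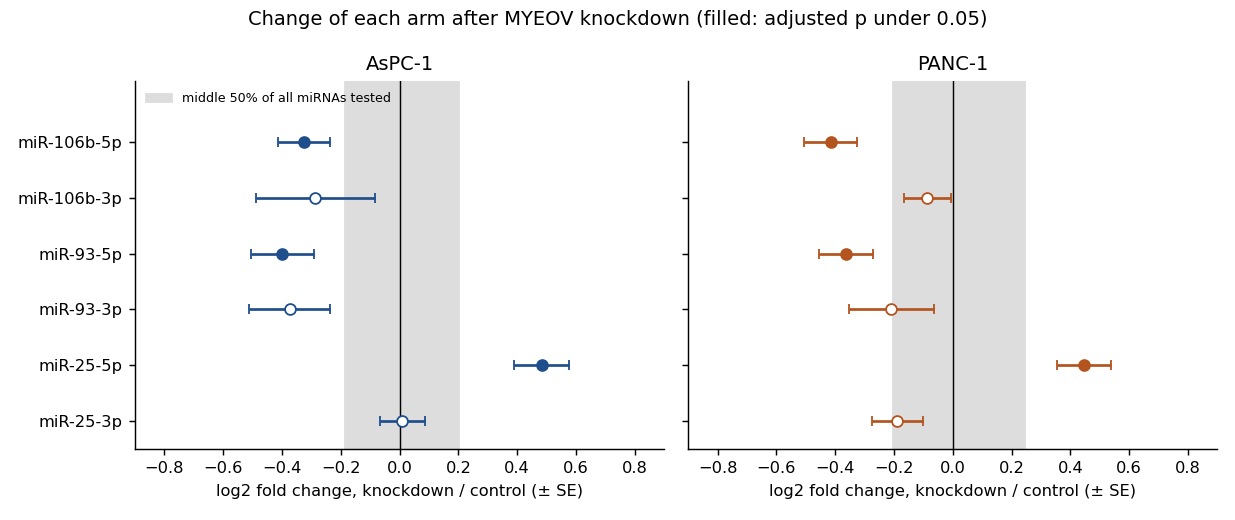
Log2 fold change of each arm after MYEOV knockdown (x axis) in AsPC-1 and PANC-1; points are edgeR estimates, bars ± SE, filled points passed the adjusted threshold of 0.05, and the grey band holds the middle 50% of all miRNAs tested. miR-106b-5p and miR-93-5p lie left of the band and miR-25-5p right of it in both lines.

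The ratio of the arms of a hairpin is taken within a library and needs no scaling between libraries. It was computed as log2 of 5p over 3p counts (0.5 added to each) for the 174 hairpins with both arms above the count filter, and tested by a two-sided exact permutation of control and knockdown within each line. The smallest p these permutations can give is 0.005, and within 1 line 3 against 3 libraries cannot go below 0.1.

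The miR-25 hairpin kept far more of its 3p than of its 5p arm, and this excess was smaller after knockdown. There were 53.1, 54.3 and 59.6 reads of miR-25-3p per read of miR-25-5p in the AsPC-1 controls and 39.2, 41.8 and 39.1 after knockdown. In PANC-1 there were 48.9, 50.0 and 52.8 in the controls and 34.6, 30.8 and 31.9 after knockdown. All knockdown libraries lay below all controls in both lines. The log2 ratio of 5p to 3p was higher after knockdown by 0.47 in AsPC-1 and 0.64 in PANC-1, on average 0.56, with an exact permutation p of 0.005, the smallest possible, and an adjusted p of 0.0621 over the 174 hairpins, which misses the threshold. With 14 hairpins at the smallest p, each had an adjusted p of 0.0621, so no hairpin could pass whatever its difference. Of all hairpins 0% passed the adjusted threshold, 24.1% had an unadjusted p under 0.05, and 8.05% did not overlap in the same direction in both lines. Of the 174 hairpins, 31 had a larger mean difference in either direction, so the size alone was not unusual among them. This rank takes no account of the spread between libraries or of low counts, and 47 of the 174 had a count of 0 in some library. Without AsPC-1 control replicate 1 the mean difference was 0.57.

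The 5p to 3p ratio of miR-106b was 1.63, 2.66 and 2.89 in the AsPC-1 controls, lowest in the library that stood apart, and 1.98, 2.24 and 2.18 after knockdown. In PANC-1 it was 1.12, 0.894 and 0.887 in the controls and 0.847, 0.676 and 0.787 after knockdown. The groups overlapped in AsPC-1 and did not overlap in PANC-1. The mean log2 difference was −0.22 (exact permutation p = 0.155, adjusted p = 0.350), and −0.35 (exact permutation p = 0.005, adjusted p = 0.0621) without AsPC-1 control replicate 1. It was −0.14 (exact permutation p = 0.38) without AsPC-1 control replicate 3, and −0.12 in AsPC-1 alone against −0.32 in PANC-1 alone. For miR-93, whose 5p arm made up 99.2% to 99.5% of the reads, the groups overlapped in both lines and the mean log2 difference was −0.09 (exact permutation p = 0.43, adjusted p = 0.668), and −0.15 to −0.035 when a library was left out.

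**Figure D4:**
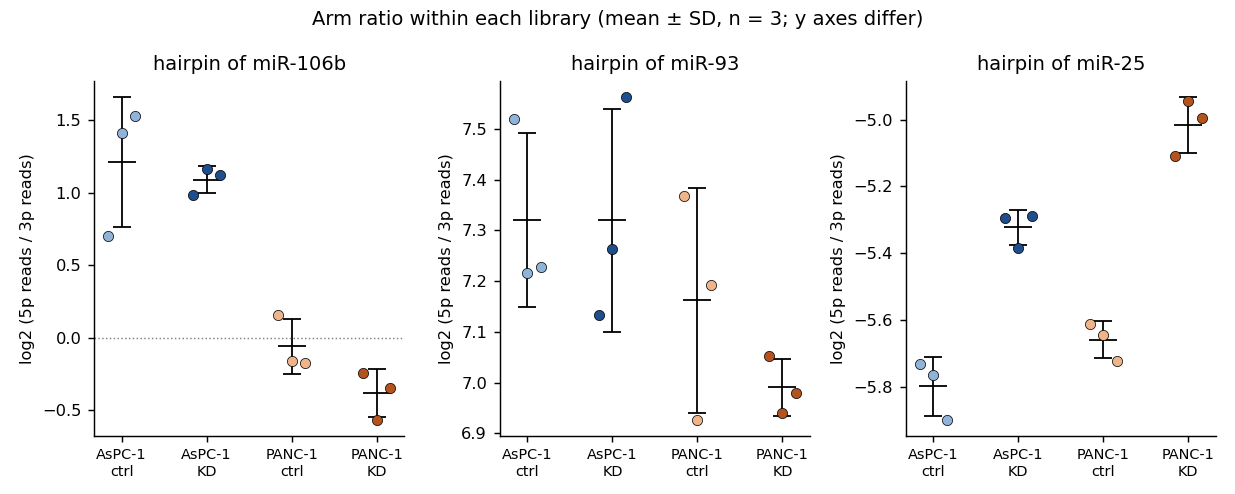
Log2 ratio of 5p to 3p reads of the 3 hairpins (y axis, not from 0 and different in each panel) in each library; points are libraries and black bars the mean ± SD (n = 3), and the dotted line marks equal reads of both arms. For miR-25 the knockdown libraries sit above the controls in both lines, and for miR-106b all PANC-1 libraries sit below all AsPC-1 libraries.

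Between hairpins, the ratio of miR-25-3p to miR-93-5p was higher after knockdown. No difference was detected in the proportion of the guides that share a seed. The former ratio contains the fall of miR-93-5p given above, with log2 fold changes of −0.40 (AsPC-1) and −0.36 (PANC-1). Those of miR-25-3p were 0.01 and −0.19 and missed the threshold, so the ratio does not show a rise of miR-25-3p itself. Whether other miRNAs rose as much relative to miR-93-5p was not tested. Reads of miR-93-5p per read of miR-106b-5p numbered 2.62 to 3.03 in the AsPC-1 controls and 2.61 to 2.76 after knockdown, and 2.87 to 3.06 and 2.78 to 3.21 in PANC-1. The mean log2 difference of miR-106b-5p to miR-93-5p was 0.0077 (exact permutation p = 0.875, adjusted p = 0.875 over 4 such tests). Reads of miR-25-3p per read of miR-93-5p numbered 1.13, 1.81 and 1.56 in the AsPC-1 controls and 1.96, 1.90 and 1.95 after knockdown. In PANC-1 they numbered 1.58, 1.92 and 1.92 in the controls and 2.01, 1.99 and 2.07 after knockdown. All knockdown libraries lay above all controls of their line. The mean log2 difference was 0.28 (exact permutation p = 0.005, the smallest possible, adjusted p = 0.02). It was 0.19 (adjusted p = 0.01) without AsPC-1 control replicate 1. The adjusted p rose to between 0.05 and 0.14 when any 1 knockdown library was left out, with differences of 0.27 to 0.29. Between the lines, AsPC-1 minus PANC-1, miR-106b-5p to miR-93-5p differed by 0.13 (exact permutation p = 0.04, adjusted p = 0.08) and miR-25-3p to miR-93-5p by −0.18 (exact permutation p = 0.105, adjusted p = 0.14). The former passed the threshold without AsPC-1 control replicate 1 (0.16, adjusted p = 0.01) and the latter without AsPC-1 control replicate 2 (−0.25, adjusted p = 0.02).

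To describe the cluster by line, the arm ratios were compared between AsPC-1 and PANC-1 within the control and within the knockdown libraries. The miR-106b hairpin gave more 5p than 3p in AsPC-1 and more 3p than 5p, or nearly equal reads, in PANC-1. In AsPC-1 the 5p arm made up 61.9% to 74.3% of its reads over all 6 libraries, and in PANC-1 40.4% to 52.7%, without overlap; 37.9% of all hairpins did not overlap in one direction in both comparisons. The mean log2 difference was 1.37 (1.27 in the controls and 1.48 in the knockdown libraries; exact permutation p = 0.005, adjusted p = 0.0132), a 2.59-fold higher 5p to 3p ratio in AsPC-1, and 1.502 without AsPC-1 control replicate 1. Of the 174 hairpins 55.2% passed the adjusted threshold between the lines and 32 had a larger difference. The adjusted p of a hairpin at the smallest p depends on how many others reach it, 66 hairpins here and 14 after knockdown. The miR-25 hairpin differed less, by −0.22 (−0.14 in the controls and −0.31 in the knockdown libraries; exact permutation p = 0.005, adjusted p = 0.0132), with a lower 5p share in AsPC-1. For miR-93 the difference of 0.24 missed the threshold (exact permutation p = 0.035, adjusted p = 0.0615), and passed it without PANC-1 control replicate 1 (0.30, adjusted p = 0.0223).

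**Figure D5:**
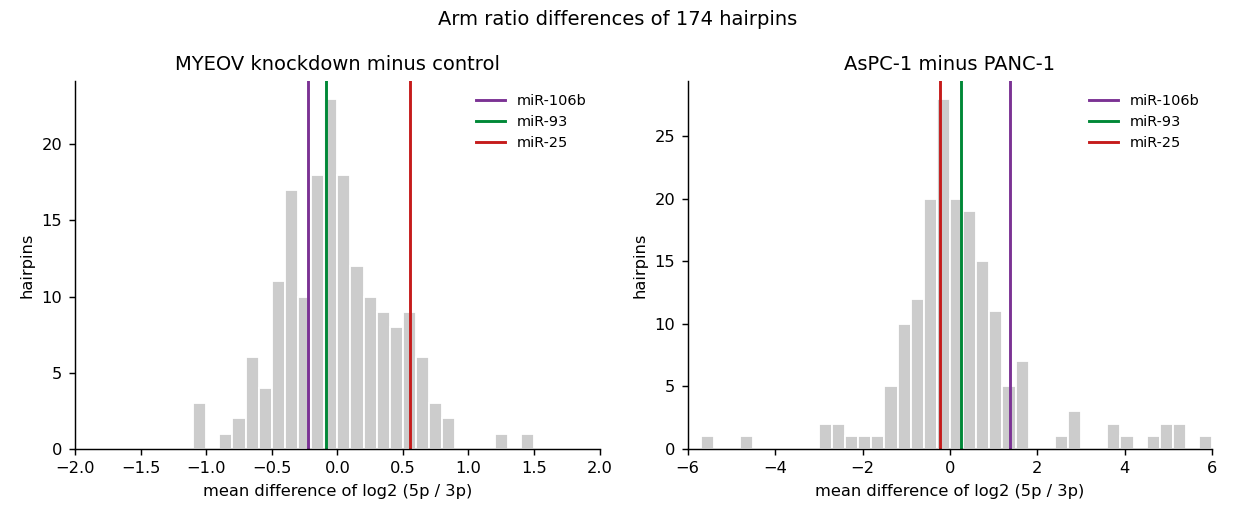
Histograms of the mean difference in log2 5p to 3p ratio (x axis) over the 174 hairpins (y axis, number of hairpins) for knockdown minus control and for AsPC-1 minus PANC-1; coloured lines mark the 3 hairpins of the cluster. miR-25 lies at 0.56 in the knockdown comparison and miR-106b at 1.37 in the comparison of the lines, both within the spread of the other hairpins.

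Levels between the lines depended on how libraries were scaled. The control libraries alone were compared, which are the same libraries that served as controls of the knockdown. With TMM the median log2 difference (AsPC-1 minus PANC-1) of all 627 miRNAs tested was −0.27, with total counts −0.60 and with upper-quartile factors 0.65, and 82.8% of them passed the threshold with TMM, so 5 of 6 arms called is close to the background. Of the calls, 226 were higher and 293 lower in AsPC-1 with TMM, and 345 higher and 200 lower with upper-quartile factors. A scaling moves all miRNAs of a library alike, so the position of an arm relative to the median of all miRNAs does not depend on it, but it does depend on which miRNAs make up the median. miR-106b-5p stood 0.87 above that median on the log2 scale and miR-93-5p 0.81 above it. miR-93-3p, miR-25-3p and miR-25-5p stood above it as well, by 0.63, 0.51 to 0.52 and 0.37 to 0.38, while miR-106b-3p stood below it, with a relative difference of −0.32 to −0.30. Over the 388 miRNAs with at least 10 counts in every library the median was 0.026, and miR-106b-5p stood 0.54, miR-93-5p 0.48, miR-93-3p 0.30, miR-25-3p 0.18 and miR-25-5p 0.042 above it, with miR-106b-3p at −0.65.

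On the TMM scale miR-106b-5p was 0.60 higher in AsPC-1 (SE 0.12, edgeR adjusted p = 0.00025) and miR-93-5p 0.55 higher (SE 0.13, edgeR adjusted p = 0.00155), but with total counts these were 0.26 (edgeR adjusted p = 0.0697) and 0.21 (edgeR adjusted p = 0.182), and neither passed the threshold. With upper-quartile factors they were 1.53 and 1.46, and without AsPC-1 control replicate 1 they were 0.52 and 0.40. miR-93-3p was 0.36 higher (edgeR adjusted p = 0.0326), but 0.026 (edgeR adjusted p = 0.886) with total counts and 1.28 with upper-quartile factors, and it missed the threshold without a filter on low counts (edgeR adjusted p = 0.0599). miR-25-3p was 0.24 higher (edgeR adjusted p = 0.0217), but −0.09 with total counts and 1.17 with upper-quartile factors. miR-25-5p differed by 0.11 (edgeR adjusted p = 0.373), and by −0.23 with total counts, and it was called higher with upper-quartile factors (1.03, edgeR adjusted p = 2.48e-07) and with all 12 libraries in 1 fit (0.25, edgeR adjusted p = 0.024). It was 0.041 without AsPC-1 control replicate 2 and 0.23 without AsPC-1 control replicate 3, and missed the threshold in both. miR-106b-3p was lower in AsPC-1 by a log2 difference of −0.58 (edgeR adjusted p = 0.0257), but at 0.33 with upper-quartile factors (edgeR adjusted p = 0.125), and DESeq2's Wald test did not call it (−0.58, DESeq2 adjusted p = 0.133). Its difference was −0.997 without AsPC-1 control replicate 1, in which this arm was highest. It missed the threshold without AsPC-1 control replicate 2 or 3 or PANC-1 control replicate 3 (edgeR adjusted p = 0.147, 0.185 and 0.0567, with differences of −0.41, −0.32 and −0.53). miR-25-3p missed it without AsPC-1 control replicate 2 (0.20, edgeR adjusted p = 0.0789) and miR-93-3p without PANC-1 control replicate 3 (0.34, edgeR adjusted p = 0.0819).

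The cluster's guides share their seeds with miRNAs of the paralogous clusters, and their share of those seed families differed by line. miR-106b-5p and miR-93-5p made up 20.3% to 21.5% of the reads with their seed in the AsPC-1 controls and 19.3% to 19.9% after knockdown. In PANC-1 they made up 48.7% to 50.3% in the controls and 49.0% to 50.9% after knockdown. miR-25-3p made up 39.7% to 42.8% of its seed family in the AsPC-1 controls, 36.3% to 38.0% after knockdown, 55.9% to 57.3% in the PANC-1 controls and 51.6% to 55.4% after knockdown. These shares are reads of the miRNAs named here as relatives, and were not tested.

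Of the relatives with the seed of miR-93-5p, 1 of 3 tested fell in AsPC-1 and 3 of 4 in PANC-1, and none rose (median log2 fold change −0.46 and −0.47, and −0.24 in AsPC-1 without control replicate 1), beside 4.42% and 9.26% of all miRNAs lower in AsPC-1 and PANC-1, where total counts gave 117 of 551 lower in PANC-1. miR-17-5p, a guide of the miR-17-92 cluster, fell from 8685 ± 2142 to 6293 ± 273 CPM in AsPC-1 (log2 fold change −0.46, edgeR adjusted p = 0.0259; −0.24 and edgeR adjusted p = 0.00175 without control replicate 1). In PANC-1 it fell from 2179 ± 336 to 1551 ± 224 CPM (−0.49, edgeR adjusted p = 0.00068). In PANC-1 miR-20a-5p fell by 0.32 and miR-20b-5p by 0.62 on the log2 scale (edgeR adjusted p = 0.018 and 0.0157). In AsPC-1 miR-20a-5p had a log2 fold change of −0.16 (edgeR adjusted p = 0.382), and 0.022 (edgeR adjusted p = 0.777) without control replicate 1. miR-106a-5p, whose sequence is nearly that of miR-17-5p and which can share reads with it, was not called in either line. It had 42 to 134 reads a library. Its log2 fold change was −0.57 in AsPC-1 (edgeR adjusted p = 0.0992) and −0.44 in PANC-1 (edgeR adjusted p = 0.107). Without AsPC-1 control replicate 1 the former was −0.31 (edgeR adjusted p = 0.269).

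Of the relatives with the seed of miR-25-3p, 1 of 3 fell and 1 of 3 rose in AsPC-1, and 1 of 4 fell and none rose in PANC-1, beside 4.42% lower and 7.03% higher of all miRNAs in AsPC-1 and 9.26% and 12.7% in PANC-1. miR-92a-3p, which the miR-17-92 and miR-106a-363 clusters both yield and whose reads cannot be assigned to either, rose from 9998 ± 96.2 to 12339 ± 604 CPM in AsPC-1 (log2 fold change 0.30, edgeR adjusted p = 0.0146) and went from 3712 ± 176 to 3998 ± 112 CPM in PANC-1 (0.11, edgeR adjusted p = 0.362). miR-92b-3p fell in both lines, with a log2 fold change of −0.32 (edgeR adjusted p = 0.0255) in AsPC-1 and −0.23 (edgeR adjusted p = 0.0432) in PANC-1. Among the other arms of the paralogous clusters, 2 of 9 tested rose in AsPC-1 and none of 8 was called in PANC-1, beside 7.03% of all miRNAs higher in AsPC-1 and 22% called in PANC-1. Whether the lists depart from these shares was not tested. The 2 that rose were miR-92a-1-5p, the rare 5p arm opposite miR-92a-3p, at 83.1 ± 10.9 CPM in the controls and 175 ± 10.9 CPM after knockdown (log2 fold change 1.07, edgeR adjusted p = 2.63e-05), and miR-20a-3p, at 12.5 ± 3.25 and 30.5 ± 2.69 CPM (1.28, edgeR adjusted p = 0.000232). All calls named for AsPC-1 in these lists also passed without control replicate 1, and miR-18a-3p then rose as well (log2 fold change 0.33, edgeR adjusted p = 0.0179). For the relatives no other left-out library, scaling or test was examined, so how far their calls hold was not tested.

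Between the lines several relatives differed by more than any arm of the cluster, as most miRNAs did. With TMM the median absolute log2 difference of all 627 miRNAs tested was 1.49, and 82.8% passed the threshold. The arm that differed most, miR-106b-5p, stood at 0.60. The values given here are with TMM, and other scalings were not examined for the relatives. In AsPC-1 miR-17-5p was 2.27 and miR-20a-5p 2.56 higher on the log2 scale and miR-92a-3p 1.70 higher, while miR-92b-3p had a log2 difference of −2.26 (largest edgeR adjusted p = 6.16e-09). miR-363-3p had 0 reads in all 6 AsPC-1 libraries, where a count of 0 allows up to 3, and 756 to 1118 in the PANC-1 libraries, and miR-20b-5p had 0 to 2 reads against 61 to 149.

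The miRNAs whose levels followed each arm most closely over the 12 libraries were ranked by the root mean square (RMS) difference of mean-centred log2 CPM, a description over libraries that share line and treatment. For miR-106b-5p these were miR-335-5p (RMS 0.0968), miR-93-5p (0.0976) and miR-130b-3p (0.110), beside a median RMS of 0.850 over 649 miRNAs. For miR-93-5p they were miR-335-5p, miR-106b-5p and miR-421, with RMS from 0.0968 to 0.115. Both trios stayed the closest 3 without AsPC-1 control replicate 1, in another order for miR-93-5p. The closest to miR-25-5p was miR-16-2-3p (RMS 0.125), the rare arm of another hairpin, followed by let-7a-3p and miR-181a-2-3p, while miR-25-3p was closest to miR-149-5p (0.115), miR-10a-3p and miR-151a-5p. Without AsPC-1 control replicate 1 the former trio ranked 1st, 3rd and 4th and the latter 2nd, 5th and 4th. miR-93-3p was closest to miR-103a-3p (0.172), miR-361-5p and miR-548k, which ranked 3rd, 4th and 1st without that library. miR-106b-3p was closest to miR-197-3p (0.189), miR-193b-3p and miR-210-3p, which without AsPC-1 control replicate 1 were 7th, 9th and 20th. No arm of the cluster other than the pair miR-106b-5p and miR-93-5p had another arm of the cluster among its closest 3.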

How the data were processed

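For AsPC-1 and for PANC-1, 3 control and 3 MYEOV-knockdown small RNA libraries were analysed, grouped by their labels, and none was left out. The authors trimmed adapters, mapped reads to hg19 with Bowtie (version not given in the sources used here), retained only reads of miRNA size that matched perfectly, and deposited raw read counts per mature miRNA without normalization; an unlisted miRNA was given a count of 0. The members and the lists of relatives and markers were chosen with earlier results of these data known. The members were always named, relatives where they passed a test, and the 3 nearest miRNAs per arm by RMS difference. Counts were fitted with edgeR 4.0.16 in R 4.3.3 (filterByExpr with minimum count 10, TMM factors, quasi-likelihood F test, Benjamini-Hochberg adjustment over all miRNAs tested), separately for each line, for the controls of both lines and, for the interaction, for all 12 libraries. SE was the log2 fold change divided by the root of F. Arm ratios were tested by exact permutation over 400 arrangements. The fits were tested on simulated counts. Alternatives were DESeq2 1.42.0, other scalings, filters, pseudocounts and a replicate block, and leaving out each library; the relatives and the nearest miRNAs without AsPC-1 control replicate 1, the members' median under each alternative and the lines' median under the stricter filter were added after seeing the data. Coordinates are from GENCODE on GRCh37.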

Additional observations from a re-analysis of the deposited data

How the results depend on the processing

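The knockdown calls of miR-25-5p held under all 8 alternatives of scaling, filter, tool, block and fit in both lines, with log2 fold changes of 0.38 to 0.50 (AsPC-1) and 0.30 to 0.49 (PANC-1). Those of miR-106b-5p and miR-93-5p held under 8 of 8 in PANC-1 and 7 of 8 in AsPC-1. The number of arms called was 3 in AsPC-1, 1 to 3 when a library was left out and 4 with all 12 libraries in 1 fit, and 3 in PANC-1, 2 to 4 when a library was left out and 5 with total count scaling. Between the lines 5 arms were called, 3 to 5 when a library was left out, 1 with total count scaling, 4 with the DESeq2 Wald test and without a filter, and 6 with all 12 libraries in 1 fit. No arm was called for a difference in response under any alternative. Directions turned for miR-25-3p in AsPC-1 (−0.0021 with total counts, −0.086 with all 12 libraries in 1 fit, −0.024 to 0.055 when a library was left out), for miR-106b-3p in AsPC-1 (−0.47 to 0.16 when a library was left out), and between the lines for miR-25-5p (−0.23) and miR-25-3p (−0.095) with total counts and miR-106b-3p (0.33) with upper-quartile factors. These follow the shift of the median of all miRNAs for the scalings; for the others the cause was not tested.

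The arm ratio difference of miR-25 after knockdown was 0.64 in PANC-1 alone and 0.47 in AsPC-1 alone. Between the lines it was −0.14 in the controls alone and −0.31 in the knockdown libraries alone. For miR-93 between the lines it was 0.26 (adjusted p = 0.047) with a pseudocount of 5, and 0.18 to 0.30 when a library was left out. Differences between hairpins when a library was left out ranged from 0.19 to 0.36 for miR-25-3p to miR-93-5p and from −0.024 to 0.032 for miR-106b-5p to miR-93-5p after knockdown, and between the lines from −0.25 to −0.080 and from 0.10 to 0.16. With no pseudocount, the 47 hairpins with a count of 0 were counted as not different, and the adjustment still ran over all 174.

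The replicate numbers did not pair the libraries: the correlation of deviations of same-numbered libraries was −0.15 to 0.06 (AsPC-1), −0.05 to −0.03 (PANC-1) and 0.06 to 0.23 between the controls of the lines, and not every library was closest to its own number. With the replicate block 1 arm was called in AsPC-1 and 4 in PANC-1, among 29 and 153 miRNAs: in AsPC-1 miR-106b-5p (−0.32, edgeR adjusted p = 0.122) and miR-93-5p (−0.38, edgeR adjusted p = 0.105) missed the threshold, and in PANC-1 miR-25-3p passed it (−0.19, edgeR adjusted p = 0.0398). The block left the arm ratio differences between the lines at 1.37 for miR-106b and −0.22 for miR-25 (adjusted p = 0.0591) and that of miR-25-3p to miR-93-5p after knockdown at 0.28 (adjusted p = 0.0625); the smallest p of 6 pairs is 0.03125. It changed no other call of the ratios.

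Over all miRNAs the number called in AsPC-1 was 57, and 24 to 102 when a library was left out, 102 without control replicate 1. In PANC-1 it was 121, 67 with all 12 libraries in 1 fit and 55 to 129 when a library was left out. With total counts 26 rose and 117 fell in PANC-1 (70 and 51 with TMM), and with all 12 libraries in 1 fit 25 rose and 45 fell in AsPC-1 (35 and 22). For the difference in response 2 were called, 10 without a filter and up to 25 when a library was left out.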
